A study of Mus musculus with 18 samples.

Results

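The genes described here build the inner face of the nuclear envelope. They are the 3 lamin genes Lmna, Lmnb1 and Lmnb2 and the 7 genes Lbr, Emd, Lemd3, Tmpo, Sun1, Sun2 and Banf1, whose products sit in or on the inner nuclear membrane. They were taken by symbol, all 10 were found among the 45706 genes of the table, and all 10 passed the filter on low counts. RNA-seq had been performed on mouse induced pluripotent stem cells (iPSCs) kept on mitotically inactivated fibroblast feeders with LIF and 2i, and on the same cells moved for 24 h to feeder-free plates in medium with Activin A and bFGF, which turns naïve cells into epiblast-like cells (EpiLCs). There were 6 groups of 3 biological replicates: Hmga2 wt cells, Hmga2 KO clone #1 and Hmga2 KO clone #2, each at 0 h and 24 h. Hmga2 is a DNA-bending chromatin protein, and the comparison of genotypes asked how its loss alters the exit from the naïve state. By the labels wt came from 1 iPSC line and the KO from 2 clones, each compared separately here. In each comparison a difference of genotype and a difference between clones cannot be told apart, and the replicates give the spread within a clone.

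The nuclear lamina is a meshwork of lamin filaments under the inner nuclear membrane. B-type lamins (Lmnb1 and Lmnb2) are made by nearly every cell, whereas the A-type lamin gene Lmna is known for low expression in pluripotent cells and higher expression in differentiated ones, fibroblasts included. The lamin B receptor Lbr and the lamins hold heterochromatin at the nuclear edge. Emd (emerin), Lemd3 (Man1, which also restrains Smad signalling) and Tmpo (Lap2) share the LEM domain, which binds Banf1, a small DNA-bridging protein that gathers chromatin when the envelope re-forms after mitosis. Sun1 and Sun2 span the inner membrane and bind nesprins in the outer one, forming the LINC complexes that couple the nucleus to the cytoskeleton.

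Total counts ranged from 3466436 to 23872837 per library, and between 40 and 6660 counts per library fell on a single lamin or inner membrane gene, so all of them lay above the level of 3 counts, which was 0.116 to 0.983 CPM (counts scaled to the same TMM-adjusted library total). Protein-coding genes took 41.3% to 63.4% of the counts in wt and KO#1 at 24 h, where the 7SL gene Rn7s1 alone took 11.7% to 19.9%, against 82.3% to 84.7% in KO#2 at 24 h, so KO#2 stands apart in the make-up of its libraries. At 0 h the ranges were 52.6% to 77.4% and 76.3% to 79.1%. A single gene, Gm26917, took 33.3% in wt 0 h replicate 1, the shallowest library. Hmga2 itself had a mean of 17.7 ± 4.53 CPM (SD, n = 3) in wt at 0 h against 5.50 ± 4.28 in KO#1 and 4.73 ± 3.25 in KO#2, and of 5.77 ± 0.226 in wt at 24 h against 2.26 ± 1.40 and 5.64 ± 4.16. In edgeR's quasi-likelihood test Hmga2 fell in wt from 0 h to 24 h (log2 fold change -1.61, adjusted p = 0.0362), a call lost without any 1 of these 6 libraries except wt 0 h replicate 2 (adjusted p = 0.0555 to 0.117). Of the 4 comparisons of a clone with wt that of KO#2 at 0 h alone passed (adjusted p = 0.0230), a call lost without wt replicate 3 or KO#2 replicate 1 or 2 or with scaling by library totals alone (adjusted p = 0.0583 to 0.0863). At 24 h Hmga2 was at 10.44, 3.015 and 3.472 CPM in the KO#2 replicates against 5.51 to 5.93 CPM in wt. Replicate 1 thus lay above all wt libraries, and replicates 2 and 3 lay below them. As a group, the KO#2 libraries at 24 h do not show lower Hmga2 RNA than wt (log2 fold change -0.04, adjusted p = 0.966). They are called here by their label. In each genotype 8 of 10 naïve markers were lower and 7 of 8 primed markers higher at 24 h than at 0 h, where 13.3% to 24.7% of all genes were called lower and 12.7% to 26.0% higher. Against wt at 24 h, where 6.25% of all genes were called higher and 3.61% lower in KO#1 and 21.3% and 16.0% in KO#2, naïve markers were higher in 5 (KO#1) and 6 (KO#2) of 10, primed markers lower in 4 and 2 of 8, and primitive endoderm markers higher in 2 and 5 of 5, with a median log2 fold change in KO#2 of 2.12. Primitive endoderm markers were low in level, with a sum at 24 h of 1.05 to 1.76 CPM in wt, 2.425 to 7.20 in KO#1 and 13.3 to 26.5 in KO#2. The median of 2.12 is the value of Sox7, at a mean of 0.754 CPM in KO#2 and 0.179 CPM in wt. The part of these marker differences in the results was not tested. The summed level of 12 feeder fibroblast markers at 0 h was 131 to 473 CPM in wt, 206 to 602 in KO#1 and 371 to 1075 in KO#2, and after induction 24.3 to 40.8, 47.2 to 61.4 and 92.1 to 279 CPM, with only Dcn at 0 counts in a whole group (wt at 0 h). In bulk RNA, fewer cells of a type and less RNA per cell cannot be told apart.

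Levels between genes were compared as CPM per kb of annotated exons. In wt iPSCs Lmnb1 led with 107 ± 44.0 CPM per kb (SD, n = 3), followed by Banf1 with 57.0 ± 8.05, Lbr with 23.6 ± 2.48, Lmnb2 with 20.5 ± 7.41 and Sun1 with 19.4 ± 3.13. Emd followed with 15.1 ± 3.59, Tmpo with 11.1 ± 0.566, Lmna with 8.44 ± 5.67, Lemd3 with 5.77 ± 1.10 and Sun2 with 4.62 ± 2.02. Banf1 was separated from Lbr by more than their SDs, while for every other pair of neighbours in this order the ranges of mean ± SD overlapped. At 24 h in wt the first places were exchanged, with Banf1 at 149 ± 18.5 and Lmnb1 at 67.3 ± 15.5 CPM per kb, and Sun2 stayed last at 0.683 ± 0.206. Counted per kb of the longest transcript, Sun1 moved ahead of Lbr at 0 h and Emd ahead of Lbr at 24 h, so that the middle of this order depends on the length used.

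Across the 18 libraries Tmpo was the steadiest of these genes, with 101 to 186 CPM, a span of 1.84-fold. Sun2 had the widest span, from 2.46 CPM in wt 24 h replicate 1 to 40.5 CPM in KO#1 0 h replicate 1, or 16.4-fold. The plot of levels by library shows both, and also shows where single libraries stand apart: wt 0 h replicate 1 in Lmna, Lmnb1 and Lmnb2, and KO#1 0 h replicate 3 in Emd, Lbr and Tmpo.

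**Figure D1:**
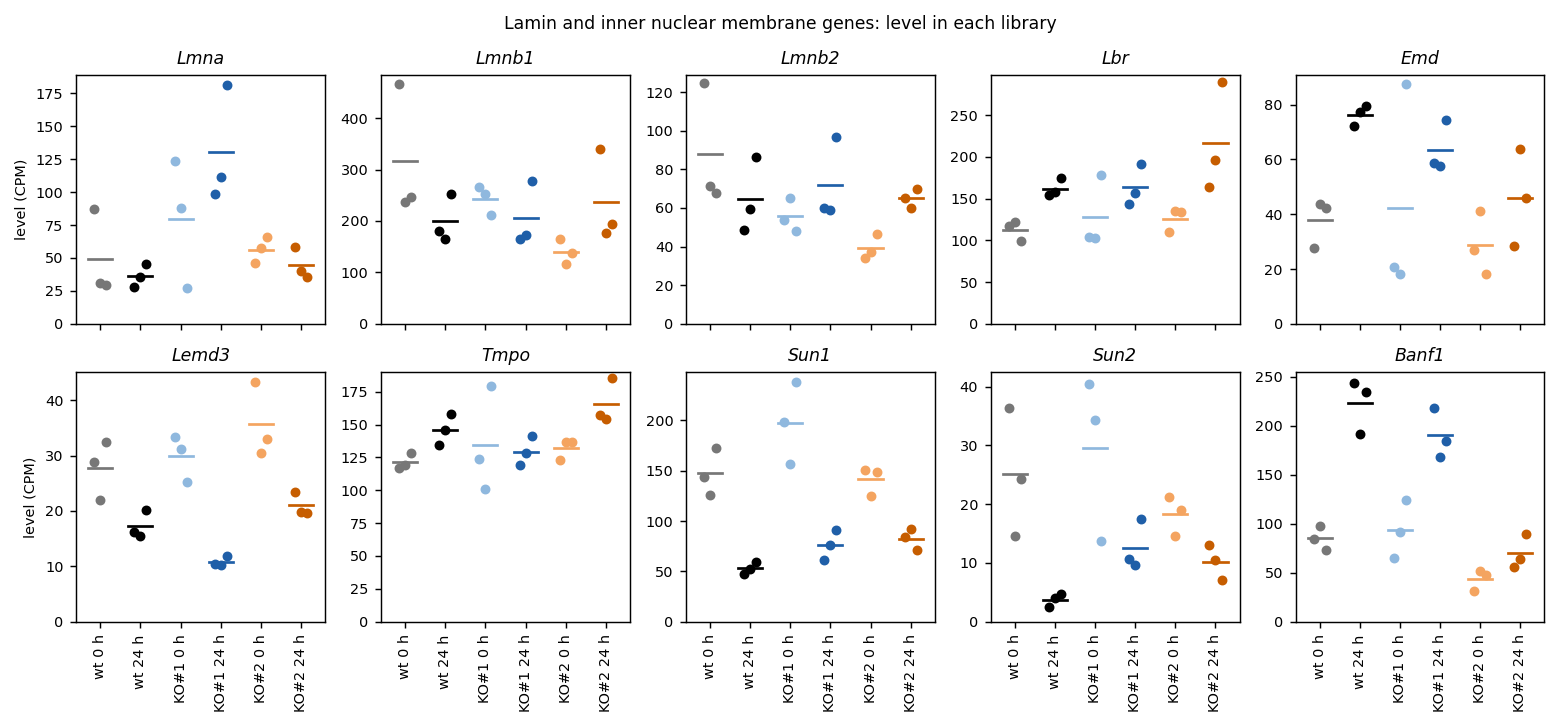
Level of each of the 10 genes in CPM (linear axis from 0) in the 18 libraries; points are replicates 1 to 3 from left to right and lines are group means. Sun2 in wt at 24 h lies between 2.46 and 4.63 CPM, under every other library, and Banf1 in KO#2 stays at or under 89.2 CPM.

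The first question was how these genes in Hmga2 wt cells differed between 0 h and 24 h of EpiLC induction. The cells also left the feeders in this time: the summed fibroblast markers were at 131 to 473 CPM before and 24.3 to 40.8 CPM after. Induction and loss of feeders cannot be told apart in this comparison, nor in that of the clones. Sun1, Sun2 and Lemd3 fell and Banf1 rose, while the 3 lamin genes, Lbr, Emd and Tmpo did not pass the test. Of the 10 genes, 1 was called higher and 3 lower (adjusted p under 0.05 in edgeR's quasi-likelihood test), against 26.0% of all 16619 genes tested called higher and 24.7% lower, so the share of calls lies near that of the whole transcriptome. Their median log2 fold change was -0.42, beside 0.03 over all genes.

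The SUN pair showed the largest shifts. Sun2 stood at 36.4, 14.5 and 24.3 CPM in the wt replicates at 0 h and at 2.46, 4.01 and 4.63 CPM at 24 h. The groups did not overlap, and the fall was 2.74 on the log2 scale (log2 fold change -2.74, SE 0.43, adjusted p = 7.11e-05), or 6.67-fold. Sun1, at 144, 126 and 173 CPM before induction, stood at 47.6, 52.1 and 58.8 CPM after it, again without overlap. Its log2 fold change was -1.48 (SE 0.22, adjusted p = 5.28e-05). Sun1 was thus the more abundant SUN gene at both times, and the log2 ratio of Sun1 to Sun2 per length went from 2.16 ± 0.592 to between 3.18 and 3.79 in the 3 induced libraries.

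Banf1 rose from 84.9, 97.4 and 73.4 CPM to 244, 192 and 234 CPM, without overlap between the groups. This was a 2.62-fold increase (log2 fold change 1.39, SE 0.27, adjusted p = 0.000415), which missed the threshold with libraries scaled by their totals alone (0.80, adjusted p = 0.0585), a setting that moves the log2 fold changes of all genes by a median of -0.62. Lemd3 went from 28.9, 22.0 and 32.4 CPM to 16.2, 15.5 and 20.3 CPM, a log2 fold change of -0.68 (SE 0.21, adjusted p = 0.0142). Its LEM-domain relatives differed from it: Emd, with 27.5 to 43.9 CPM before and 72.4 to 79.5 CPM after induction, did not pass (log2 fold change 1.00, SE 0.46, adjusted p = 0.0774), and Tmpo had 117 to 129 CPM before and 135 to 158 CPM after induction. Emd is X-linked, and the median over the 639 X-linked genes tested was 0.54 on the same scale, beside 0.01 for autosomal genes. The part of this in the Emd value was not tested. Among the lamins, Lmnb1 had 467, 237 and 246 CPM at 0 h and 181, 166 and 252 CPM at 24 h (log2 fold change -0.67, SE 0.32, adjusted p = 0.0873). The high value comes from wt 0 h replicate 1, in which Lmnb2 (125 against 71.4 and 67.9 CPM) and Lmna (87.5 against 30.9 and 29.4 CPM) also stood apart.

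Without wt 0 h replicate 3 or wt 24 h replicate 2, Lemd3 lost its call (adjusted p = 0.0816 and 0.0518), as it did with no filter on low counts (adjusted p = 0.0859). Without wt 24 h replicate 3, Lmnb1 and Lmnb2 were called lower as well. Lmnb1 was so also with library totals alone (-1.19, adjusted p = 0.0172) and with at least 10 counts in every library (-0.76, adjusted p = 0.0420). Emd was called higher with no filter (1.01, adjusted p = 0.00306) and with only the groups compared (0.97, adjusted p = 0.00429).

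The promoters of the 4 genes called in wt cells are shown to let their sequence be read beside their response. RefSeq (GRCm38.p6) promoter windows were read for 9 of the 10 genes, 14 windows in all, and none was read for Lmnb1. For each gene the RefSeq window furthest upstream is shown, as the 250 bases before the RefSeq start, printed 5′ to 3′ on the gene's strand. Matches to the CCAAT box (CCAAT) and the GC box (GGGCGG) on either strand are in capitals. The Banf1 window lies within the span that GENCODE gives for the gene (chr19:5364638-5367168), whose start is further upstream than the RefSeq one.
Sun1, chr5:139200387-139200636, plus strand: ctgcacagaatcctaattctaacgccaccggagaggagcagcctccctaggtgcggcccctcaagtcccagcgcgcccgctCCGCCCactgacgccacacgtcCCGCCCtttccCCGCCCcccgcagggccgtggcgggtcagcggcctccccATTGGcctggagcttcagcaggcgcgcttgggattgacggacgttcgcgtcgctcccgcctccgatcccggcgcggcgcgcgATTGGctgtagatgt
Sun2, chr15:79742537-79742786, minus strand: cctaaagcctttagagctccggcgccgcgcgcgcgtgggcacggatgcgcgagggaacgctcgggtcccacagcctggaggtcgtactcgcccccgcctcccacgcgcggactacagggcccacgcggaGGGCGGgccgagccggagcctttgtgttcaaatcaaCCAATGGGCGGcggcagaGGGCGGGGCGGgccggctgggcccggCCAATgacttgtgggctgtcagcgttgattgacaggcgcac
Lemd3, chr10:120979331-120979580, minus strand: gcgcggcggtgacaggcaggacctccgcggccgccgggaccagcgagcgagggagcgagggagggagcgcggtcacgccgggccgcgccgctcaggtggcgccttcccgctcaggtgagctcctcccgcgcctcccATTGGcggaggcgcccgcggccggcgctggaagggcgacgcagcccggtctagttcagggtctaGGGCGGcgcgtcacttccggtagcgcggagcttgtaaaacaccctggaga
Banf1, chr19:5366877-5367126, minus strand: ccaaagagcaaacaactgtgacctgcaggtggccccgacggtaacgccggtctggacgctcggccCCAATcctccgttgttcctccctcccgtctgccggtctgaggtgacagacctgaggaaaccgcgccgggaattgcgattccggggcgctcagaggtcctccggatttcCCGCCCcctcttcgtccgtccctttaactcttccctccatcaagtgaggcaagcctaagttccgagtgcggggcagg
All 4 windows shown hold both motifs and none of them holds the TATA box (TATAAA), the E-box (CACGTG) or the CRE (TGACGTCA). CCAAT was present in 33.8% and GGGCGG in 32.7% of the 32851 promoter windows of the same length, TATAAA in 12.4%, CACGTG in 6.02% and TGACGTCA in 1.55%. Sun1 has 2 CCAAT and 3 GGGCGG matches, Sun2 2 and 4, the latter partly overlapping, and Lemd3 and Banf1 1 of each. GC content was 70.0% for Sun1, 70.8% for Sun2, 74.4% for Lemd3 and 62.8% for Banf1, beside a median of 52.4% over all windows. RefSeq has a further window for Sun1 and for Banf1, not shown, and these differ. That of Sun1 has 1 TATAAA, 1 CCAAT and 0 GGGCGG matches and a GC content of 43.6%. That of Banf1 has 0 CCAAT and 3 GGGCGG matches and a GC content of 77.2%. Genes that were not called in wt hold the motif pair too, with 2 CCAAT and 1 GGGCGG in Lbr, 2 and 4 in the upstream window of Tmpo and 1 and 1 in Emd. A match is a description of letters, not a binding site.

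The same question was then put to the KO clones. In KO#1, Sun1, Sun2 and Lemd3 fell and Banf1 rose again: 1 gene was called higher and 3 lower, with 20.1% and 20.6% of all genes. Lemd3 went from 33.3, 31.1 and 25.2 CPM to 10.4, 10.2 and 11.9 CPM (log2 fold change -1.46, SE 0.22, adjusted p = 9.65e-05). Sun1 fell by 1.38 on the log2 scale (SE 0.22, adjusted p = 0.000178), and Banf1 rose 2.04-fold (log2 fold change 1.03, SE 0.26, adjusted p = 0.00551, and 0.23 with adjusted p = 0.604 when scaled by library totals alone). Sun2 went from 40.5, 34.2 and 13.7 CPM to 10.6, 9.61 and 17.4 CPM (log2 fold change -1.22, SE 0.40, adjusted p = 0.0209), so that here its groups overlapped. The Sun2 call was lost without KO#1 0 h replicate 1 or 2 or KO#1 24 h replicate 1 or 2 (adjusted p = 0.0606 to 0.121). Emd was at 20.7, 18.2 and 87.5 CPM at 0 h, and without the third of these libraries it and Lbr were called higher at 24 h (log2 fold change of Emd 1.71, adjusted p = 0.00145, against 0.57 with it).

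In KO#2, Lbr was called higher and Lemd3 and Sun1 lower, with 12.7% of all genes called higher and 13.3% lower. Lbr, the receptor that binds B-type lamins and also has a sterol reductase domain, went from 110, 135 and 134 CPM to 164, 196 and 289 CPM (log2 fold change 0.78, SE 0.25, adjusted p = 0.0293). Lemd3 went from 43.4, 30.5 and 33.0 CPM to 23.4, 19.9 and 19.7 CPM (log2 fold change -0.76, SE 0.21, adjusted p = 0.0126). Sun1 went from 150, 125 and 149 CPM to 83.7, 91.9 and 71.0 CPM (log2 fold change -0.78, SE 0.22, adjusted p = 0.0138). In all 3 genes the libraries of the 2 times did not overlap. Lmnb1 (0.76, adjusted p = 0.0841), Lmnb2 (0.73, adjusted p = 0.0590), Banf1 (0.67, adjusted p = 0.0667) and Sun2 (-0.84, adjusted p = 0.120) did not pass. All 3 calls were lost without KO#2 0 h replicate 1, without KO#2 24 h replicate 3, with scaling by library totals alone or with no filter on low counts (adjusted p = 0.0540 to 0.196). That of Lbr was also lost without KO#2 0 h replicate 2 or 3 (adjusted p = 0.0522 and 0.0600).

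Over the 3 genotypes, 5 of the 10 genes were called in at least 1 response, beside 62.8% of all genes tested, and Sun1 and Lemd3 in all 3, beside 16.0% of all genes. A difference between the response of a clone and that of wt was called for none of the 10 genes in either clone by edgeR, with 0.253% and 0.138% of all genes called higher and lower for KO#1 and 0.951% and 0.517% for KO#2. At an unadjusted p under 0.05 there were 2 genes for KO#1 and 4 for KO#2 (10.1% and 23.6% of all genes), and DESeq2 called 0 and 3 (2.14% and 10.9% of all genes). The largest differences were those of Sun2, 1.52 for KO#1 (SE 0.57, adjusted p = 0.328) and 1.90 for KO#2 (SE 0.57, adjusted p = 0.0842), both in the sense of a smaller fall than in wt. For KO#2, Lmnb1 (1.43, SE 0.45, adjusted p = 0.0937) and Lmnb2 (1.16, SE 0.39, adjusted p = 0.108) came next, and DESeq2 called these and Sun2 (adjusted p = 0.0211, 0.0371 and 0.0214). The plot of responses shows the 3 genotypes side by side.

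**Figure D2:**
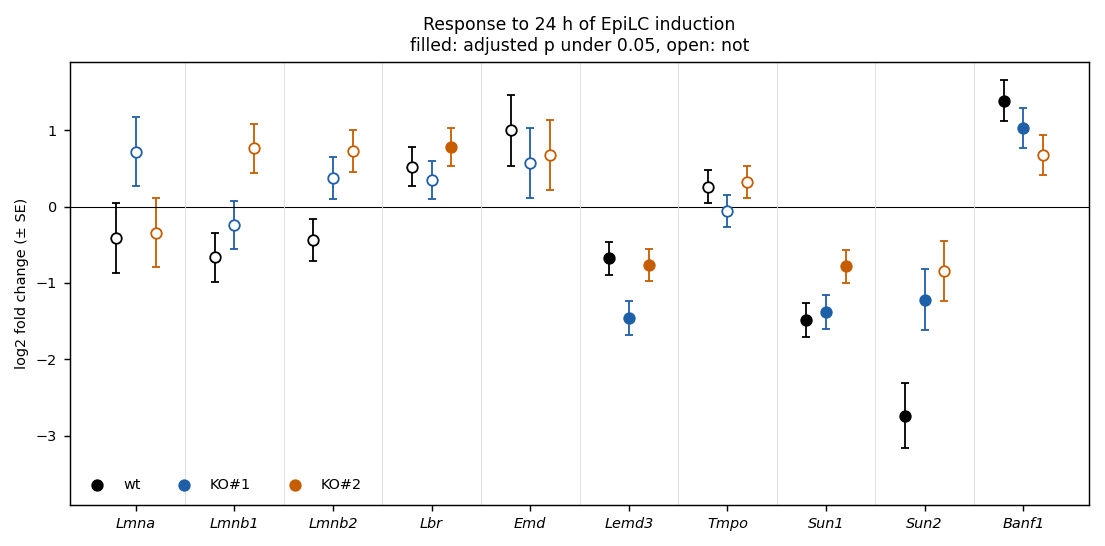
Log2 fold change from 0 h to 24 h of EpiLC induction for the 10 genes in wt, KO#1 and KO#2 (points, with bars of ± 1 SE from edgeR); filled points passed an adjusted p of 0.05. Sun1 and Lemd3 lie below 0 and are filled in all 3 genotypes, and Sun2 reaches -2.74 in wt against -1.22 and -0.84 in the clones.

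Before induction the B-type lamins and Banf1 set KO#2 apart from wt. KO#1 had no gene of the 10 called against wt at 0 h by edgeR or DESeq2 (1 at an unadjusted p under 0.05, beside 19.9% of all genes), with 3.99% of all genes called higher and 2.68% lower. KO#2 had 0 higher and 3 lower, with 21.5% and 16.6% of all genes. Both clones were compared with the same 3 wt libraries. Lmnb1 stood at 165, 116 and 138 CPM in KO#2 against 467, 237 and 246 CPM in wt, without overlap (log2 fold change -1.18, SE 0.32, adjusted p = 0.00908). Lmnb2, the other B-type lamin, stood at 34.1, 37.0 and 46.7 CPM against 125, 71.4 and 67.9 CPM (log2 fold change -1.16, SE 0.28, adjusted p = 0.00453). Banf1 stood at 31.8, 51.8 and 48.1 CPM against 84.9, 97.4 and 73.4 CPM (log2 fold change -0.96, SE 0.26, adjusted p = 0.0101). The means of KO#1 lay between for the lamins, with 212 to 265 CPM of Lmnb1 and 47.8 to 65.3 CPM of Lmnb2, and Banf1 had 64.7 to 124 CPM there, and all of these values were above those of KO#2. Lmnb1 lost its call without wt 0 h replicate 1 (log2 fold change -0.82, adjusted p = 0.0574) and Banf1 without KO#2 0 h replicate 1 (-0.77, adjusted p = 0.0555), and all 3 with libraries scaled by their totals alone, which moves the log2 fold changes of all genes by a median of 0.45. In the same comparison 7 of 12 fibroblast markers were called higher in KO#2 and 0 lower, with a median log2 fold change of 1.67. Of 5 genes of the pluripotent core, 3 were called lower and 0 higher, with a median of -1.12, among them Pou5f1, the Oct4 gene (log2 fold change -1.12, adjusted p = 0.00284). The part of both in the 3 lower genes was not tested.

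At 24 h Sun2 was higher than in wt in both clones, Lmna in KO#1 and Sun1 in KO#2. Banf1 was lower in KO#2. KO#1 had 2 of the 10 genes called higher and 0 lower, with 6.25% and 3.61% of all genes, and KO#2 had 2 higher and 1 lower, with 21.3% and 16.0%. Sun2 stood at 10.6, 9.61 and 17.4 CPM in KO#1 and at 13.1, 10.4 and 7.07 CPM in KO#2, all 6 values above the 2.46 to 4.63 CPM of wt. The log2 fold changes were 1.77 (SE 0.42, adjusted p = 0.00964) and 1.47 (SE 0.41, adjusted p = 0.0101). Both calls were lost without wt 24 h replicate 1, the lowest Sun2 library, when the log2 fold changes were 1.55 (adjusted p = 0.0565) and 1.22 (adjusted p = 0.0538). Sun1 was at 83.7, 91.9 and 71.0 CPM in KO#2 against 47.6 to 58.8 CPM in wt (log2 fold change 0.64, SE 0.22, adjusted p = 0.0294), a call lost without any 1 of wt replicates 1 and 2 and KO#2 replicates 1 and 2 (adjusted p = 0.0707 to 0.110) or with no filter on low counts (adjusted p = 0.0928). KO#1 was at 61.6 to 90.8 CPM (0.53, adjusted p = 0.151).

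Banf1 showed the strongest difference of KO#2. It stood at 56.1, 64.4 and 89.2 CPM there, under all 6 libraries of wt (192 to 244 CPM) and KO#1 (169 to 218 CPM). Against wt this was a 3.19-fold lower level (log2 fold change -1.68, SE 0.27, adjusted p = 0.000161), and against KO#1 a 2.72-fold lower one (-1.44, SE 0.27, adjusted p = 0.000562). At 0 h the difference from KO#1 was -1.09 (SE 0.26, adjusted p = 0.00679). No left-out library ended the calls at 24 h, but scaling by library totals alone did (-0.66, adjusted p = 0.0916, against wt, and -0.37, adjusted p = 0.343, against KO#1), a setting that moves the log2 fold changes of all genes by a median of 1.04 and 1.07. Banf1 lies at chr19:5364638-5367168 (GRCm38, minus strand), where Eif1ad overlaps it on the other strand, so that reads of the overlap could be split between them if the counting ignored strand. The same holds for Sun1 (chr5:139200637-139249840, with 4930520M14Rik opposite), Sun2 (chr15:79724070-79742536, with Gm16575 opposite) and Lemd3 (chr10:120923413-120979332, with Gm16166 opposite), but not for Lmna (chr3:88480147-88509956), with which no annotated gene overlaps.

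Lemd3 differed between the clones at 24 h: its 19.7 to 23.4 CPM in KO#2 lay above the 10.2 to 11.9 CPM in KO#1 (log2 fold change 0.95, SE 0.22, adjusted p = 0.00263). KO#1 against wt missed the threshold (-0.68, SE 0.22, adjusted p = 0.0551), and DESeq2 called it (adjusted p = 0.0234). Between the clones, 0 of the 10 genes were called higher and 1 lower in KO#2 at 0 h (15.1% and 11.3% of all genes), and 1 higher and 2 lower at 24 h (19.3% and 16.1%). With all 18 libraries, TMM scaling and the filter on low counts of the main fit, Emd was called in no comparison, nor was Tmpo. At 24 h Emd had 28.4 to 63.7 CPM in KO#2 and 72.4 to 79.5 CPM in wt (log2 fold change -0.73, SE 0.45, adjusted p = 0.216). With only the groups compared in the fit, this Emd difference was called (-0.81, adjusted p = 0.0372). The median over X-linked genes was 0.37 (log2) between KO#2 and wt at 24 h and 0.93 at 0 h. Xist, which coats the inactive X chromosome, was at 28.6 CPM or more in each KO#2 library and at 10.3 CPM or less in each of the others. The Y-linked gene Ddx3y was higher in KO#2 than in wt as well (log2 fold change 2.48 at 0 h and 3.59 at 24 h, adjusted p = 0.0121 and 0.00292), at 0.835 to 4.22 CPM against 0.735 CPM or less in each of the others.

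**Figure D3:**
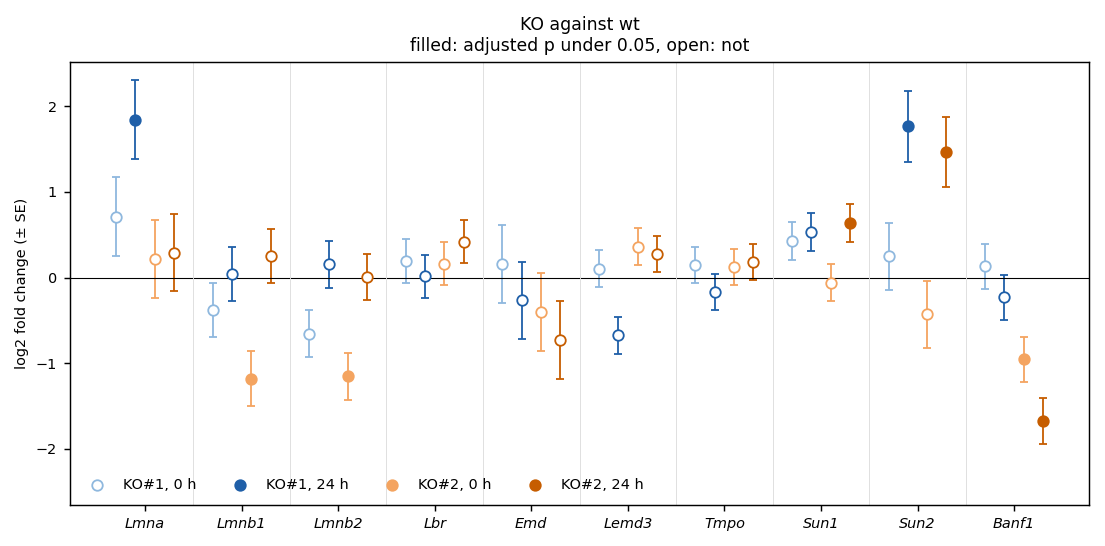
Log2 fold change of KO#1 and KO#2 against wt at 0 h (light) and 24 h (dark) for the 10 genes, with bars of ± 1 SE from edgeR; filled points passed an adjusted p of 0.05. Lmnb1 and Lmnb2 are called lower in KO#2 at 0 h and not at 24 h, and the difference between the times did not pass. Sun2 is high in both clones at 24 h, and Banf1 is low in KO#2 at both times.

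Lmna, the A-type lamin gene, had the largest difference between KO#1 and wt among the 10 genes at 24 h. It stood at 98.8, 112 and 182 CPM in KO#1 at 24 h against 27.9, 35.8 and 45.6 CPM in wt and 58.1, 39.8 and 35.8 CPM in KO#2. The KO#1 libraries lay above all 6 others. Against wt the level was 3.59-fold higher (log2 fold change 1.85, SE 0.46, adjusted p = 0.0148), while Lmnb1 (0.04, adjusted p = 0.973) was at 165 to 279 CPM in KO#1 and 166 to 252 CPM in wt. KO#2 against KO#1 was -1.55 (SE 0.46, adjusted p = 0.0139), and KO#2 against wt 0.29 (SE 0.45, adjusted p = 0.638). The KO#1 call was lost without wt replicate 1 or 2 or KO#1 replicate 3 (adjusted p = 0.0568 to 0.0748), and that between the clones without KO#1 replicate 3 or KO#2 replicate 3 (adjusted p = 0.0571 and 0.0519), with log2 fold changes from 1.56 to 1.85 and from -1.41 to -1.27. The call between the clones was also lost with scaling by library totals alone (-0.53, adjusted p = 0.320). The response to induction in KO#1 did not pass (0.72, SE 0.45, adjusted p = 0.209) and was called with no filter on low counts (0.75, adjusted p = 0.0478). Lmna was at 124, 87.7 and 27.5 CPM in KO#1 at 0 h, the last of these the lowest of the 18 libraries.

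Lmna is also abundant in fibroblasts, and so the marker genes are given beside it. At 0 h the libraries with the highest Lmna in wt (replicate 1) and in KO#1 (replicates 1 and 2) had the highest fibroblast sums of their groups, 473, 602 and 452 CPM. KO#2 0 h replicate 3 had the highest sum of all, 1075 CPM, with 65.7 CPM of Lmna. At 24 h the KO#1 libraries, with the most Lmna, had a fibroblast sum of 47.2 to 61.4 CPM, above the 24.3 to 40.8 CPM of all 3 wt libraries, and the KO#2 libraries, with 35.8 to 58.1 CPM of Lmna, had 92.1 to 279 CPM, the highest sum and the highest Lmna of these 3 being in replicate 1. Of the 12 fibroblast markers, 1 was called higher and 1 lower in KO#1 against wt at 24 h, with a median log2 fold change of 0.92, and 10 higher and 0 lower in KO#2 against wt, beside 6.25% and 3.61% of all genes in KO#1 and 21.3% and 16.0% in KO#2. Every one of the 12 was detected in each library at 24 h, and their part in the Lmna values was not tested.

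Expressed per length as a share of the 3 lamin genes together, Lmna made up 5.82 ± 1.40% (SD, n = 3) in wt at 0 h and 7.06 ± 0.954% at 24 h. The uninduced KO#1 libraries had shares of 17.2, 13.0 and 5.39%, and the induced ones of 19.6, 21.0 and 21.1%. The KO#2 shares were 11.0, 17.1 and 16.4% before induction, against 7.12, 8.46 and 6.98% after it. The 3 KO#1 libraries at 24 h thus stood well above the wt ones, by an amount larger than the spread within either group, and KO#2 overlapped with wt at 24 h but not at 0 h, when its B-type lamins were low. The log2 ratio of Lmna to Lmnb1 per length ran from -3.68 to -3.19 in wt and from -1.72 to -1.60 in KO#1 at 24 h. Lmnb1 was the main lamin transcript in every library, with 63.6% to 82.0% of the sum. As this share is a ratio within a library, it does not depend on how libraries were scaled, and with the longest transcript as the length the KO#1 values were 25.0 to 26.8% against 8.37 to 10.8% in wt.

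**Figure D4:**
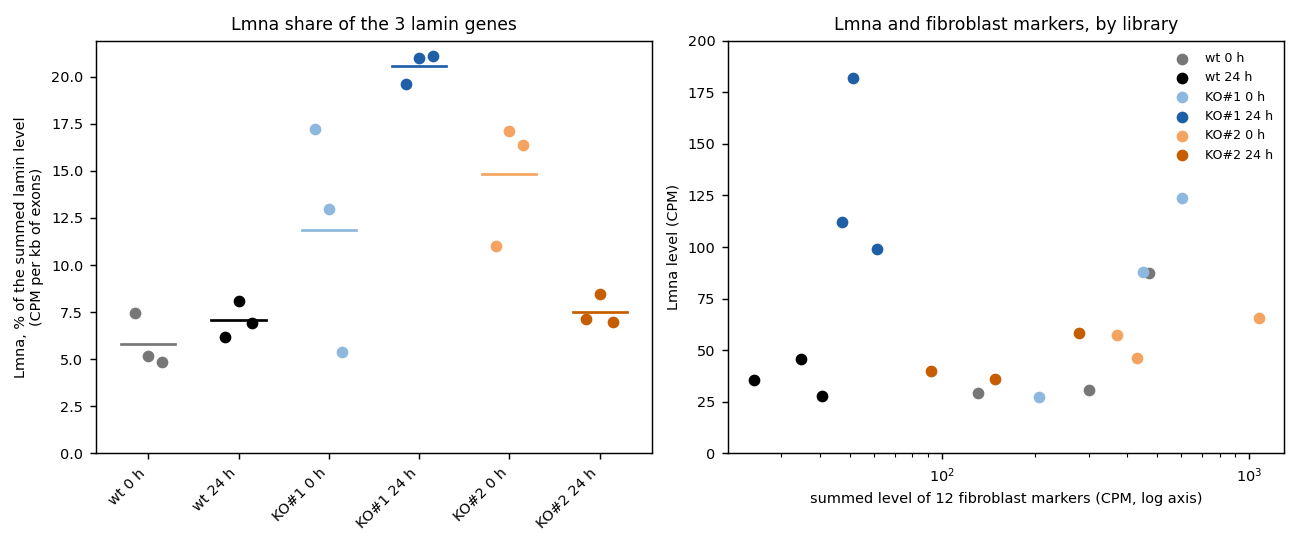
Left, share of Lmna in the summed level of Lmna, Lmnb1 and Lmnb2 (percent of CPM per kb of exons) by library, with group means as lines; right, Lmna level (CPM) against the summed level of 12 fibroblast markers (CPM, log axis), 1 point per library. KO#1 at 24 h holds 19.6 to 21.1% Lmna with a fibroblast sum of 47.2 to 61.4 CPM, KO#2 at 24 h has larger sums and lower Lmna, and wt at 24 h has smaller sums (24.3 to 40.8 CPM) and lower Lmna.

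The genes whose log2 CPM followed each member most closely over the 18 libraries are given as a description, since libraries of a group share their condition. Banf1 was closest to Dut (Pearson r = 0.988), which makes the precursor of thymidine nucleotides, and Bola2 (0.984) was also among its closest. Sun2 was closest to Cdr2l (0.972), Wwc2 (0.965) and Stat2 (0.959), and Sun1 to Prss35, Fbxl2 (both 0.972) and Csrnp2 (0.971). Lmnb2 was closest to Dnmt1 (0.936), the maintenance DNA methyltransferase, and Lmnb1 to Mapk7 (0.945). Lemd3 was closest to Fndc3a (0.940), Emd to Slc10a3 (0.939) and Lbr to Ppm1a (0.921). Lmna was closest to Ptrf (0.879), the caveolar coat gene also called Cavin1, and Tmpo, with the least close match of the 10, to Srpr (0.867).

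Other genes of the envelope were read from 5 lists. Among 13 partners in the membrane (nesprins, further LEM-domain proteins and torsins), 3 were lower and 0 higher after induction of wt cells, a share of lower genes near the 24.7% of all genes (26.0% were higher): the nesprin Syne2 (93.4 to 36.0 CPM in the mean, log2 fold change -1.37, adjusted p = 0.00440), Tmem201 (-1.21, adjusted p = 0.00289) and Lemd2 (-0.91, adjusted p = 0.0245). The KO#1 response had 1 higher and 2 lower, and that of KO#2 none either way, beside 20.1% and 20.6% of all genes in KO#1 and 12.7% and 13.3% in KO#2. At 24 h in KO#2 Syne3 was higher than in wt (log2 fold change 2.43, adjusted p = 0.00170), Syne1 too (1.98, adjusted p = 0.0166), and Syne4, the epithelial nesprin, lower (-1.99, adjusted p = 0.000577), at means of 5.90, 3.09 and 4.27 CPM in KO#2 against 1.06, 0.753 and 17.0 CPM in wt. Of the 13, 3 were higher and 6 lower in uninduced KO#2 than in wt, and after induction 2 and 3, beside 21.5% and 16.6% of all genes at 0 h and 21.3% and 16.0% at 24 h, so that the counts at 24 h lie near the background. KO#1 against wt had 0 of either at both times. Of all genes, 3.99% were called higher and 2.68% lower in KO#1 at 0 h, and 6.25% and 3.61% at 24 h.

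The enzymes that finish lamin precursors, 5 genes, had 3 higher and 0 lower in the wt response, beside 26.0% and 24.7% of all genes, with a median log2 fold change of 0.95. These were Fnta (1.27, adjusted p = 0.00422), a farnesyltransferase subunit, Rce1 (0.98, adjusted p = 0.00444), the protease that removes the last residues after farnesylation, and Zmpste24 (0.95, adjusted p = 0.0339), which cleaves prelamin A. Rce1 was called higher in KO#1 (0.86, adjusted p = 0.0129) and KO#2 (0.72, adjusted p = 0.0444) also. Fntb and Rce1 were lower in KO#2 than in wt at 0 h (-1.45 and -1.10, adjusted p = 0.000219 and 0.00404) and at 24 h (-0.91 and -1.36, adjusted p = 0.00420 and 0.000596). Of 4 genes for lamina tethers and Banf1 kinases, Vrk1, a kinase that frees Banf1 from DNA, rose with induction in wt (0.82, adjusted p = 0.0197) and KO#1 (0.82, adjusted p = 0.0243), as did Hdac3 in wt (0.70, adjusted p = 0.0221). Hdac3, a deacetylase bound by Emd and Tmpo, was lower in KO#2 than in wt at 24 h (-0.90, adjusted p = 0.00718).

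Of 8 ESCRT-III and related genes, which seal the re-forming envelope, 3 were higher and 1 lower in the wt response, beside 26.0% and 24.7% of all genes, among them Vps4b (1.09, adjusted p = 0.00113) and Ist1 (-1.07, adjusted p = 0.00652). Vps4a was the 1 gene of the list that differed between KO#1 and wt at 24 h (1.02, adjusted p = 0.0110), beside 6.25% of all genes higher and 3.61% lower. Of the 27 nuclear pore genes tested, 15 were higher and 4 lower in wt, 13 and 3 in KO#1, and 4 and 1 in KO#2, with medians of 0.78, 0.56 and 0.42. Of all genes, 26.0% were called higher and 24.7% lower in wt, 20.1% and 20.6% in KO#1, and 12.7% and 13.3% in KO#2. Nup35 rose most (2.31, adjusted p = 0.000331) and Nup210 fell most (-2.38, adjusted p = 2.53e-05) in wt, and both moved the same way in KO#1 (2.02 and -2.00) and KO#2 (1.36 and -1.13). With libraries scaled by their totals alone, the nuclear pore counts were 4 higher and 6 lower in wt and 1 and 6 in KO#1, where the median turned to -0.22. That setting moves the log2 fold changes of all genes by a median of -0.62 in wt and -0.788 in KO#1. The direction of the list thus depends on the scaling, through a shift that all genes share, and this change is not particular to the list.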

How the data were processed

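Per the study's methods, the authors prepared stranded total RNA libraries, sequenced them as paired ends, and processed the reads with nf-core rnaseq (trimming, removal of ribosomal reads, STAR on Ensembl's GRCm38, quantification with Salmon and StringTie) before comparing groups with DESeq2. The deposited table holds whole-number counts of 45706 genes in 18 libraries; whether counting used strand is not given in the sources used here. The libraries differed in their make-up, the cause of which was not tested, so scaling matters for these values.

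From the counts, edgeR 4.0.16 (R 4.3.3) was used with TMM scaling, filterByExpr (minimum count 10, 16619 genes kept), 1 model of 6 groups and quasi-likelihood tests. P-values were adjusted by Benjamini-Hochberg over all genes tested, and a gene was called under 0.05. CPM are counts scaled to a common TMM-adjusted library total; the length of a gene is the union of its exons in GENCODE M21, which matched 45143 identifiers. Alternatives were DESeq2 1.42.0, its size factors, library totals alone, no filter, at least 10 counts in every library, the compared groups only, a replicate block and leaving out each library. The fit was tested on simulated counts. No 2 libraries held identical counts.

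All 10 genes are named, with Hmga2, up to 3 called genes per list and comparison, the 3 most similar genes per member (the text gives 1 to 3 of them) and markers at 0. The members and lists were chosen with earlier results of these data known, and no set test was run. The level of 3 counts covers counting error only, whereas SDs and SEs include the spread between replicates.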

Additional observations from a re-analysis of the deposited data

How the results depend on the processing

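Of 609 results for single genes under other settings, 518 kept direction and side of the threshold, 53 lost a call, 28 gained one and 10 changed sign, all 10 in genes that had not passed. The wt and KO#1 responses, with 4 calls each, had 3 to 6 under every setting. The KO#2 response, with 3 calls, had 5 with DESeq2, 0 with library totals alone, 1 with no filter (Sun2, adjusted p = 0.0496, none of the 3) and 0 to 4 without 1 library (0 without KO#2 0 h replicate 1 or KO#2 24 h replicate 3). Library totals alone gave 0 calls in place of 3 for KO#2 against wt at 0 h, 8 in place of 3 at 24 h, and for KO#2 against KO#1 0 in place of 1 at 0 h and 6 in place of 3 at 24 h. That setting moved the log2 fold changes of all genes in KO#2 against wt at 24 h by a median of 1.04, and 94.8% of all calls there were higher, against 57.1% with TMM. Without 1 library, KO#1 against wt at 24 h had 0 to 2 calls (0 without wt 24 h replicate 1, 1 without wt 24 h replicate 2 or KO#1 24 h replicate 3) and KO#2 against wt at 24 h had 1 to 3 (1 without wt 24 h replicate 1, 2 without wt 24 h replicate 2 or KO#2 24 h replicate 1 or 2). The difference of the KO#2 and wt responses, with 0 calls, had 3 with DESeq2, 2 with library totals alone, 2 with no filter and 0 to 1 without 1 library (1 without wt 0 h replicate 2). KO#2 against KO#1 at 0 h, with 1 call, had 3 with DESeq2 and 2 with only the groups compared. Over all genes, that difference of responses had 244 calls, against 1444 with DESeq2, 801 with library totals alone and 1717 with no filter, and the one for KO#1 had 65, against 295, 4 and 307. A minimum of 10 counts in every library left 9709 genes to test. Where no value shows it, the cause was not tested.

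With library totals alone, the log2 fold changes of Lmna (-0.013) and Emd (-0.21) in the KO#1 response, and of Emd (0.32) and Hmga2 (1.01) in KO#2 against wt at 24 h, had the other sign. In that comparison Hmga2 was at 0.11 with at least 10 counts in every library and between -0.82 and 0.27 without 1 library. Lmnb1 in KO#1 against wt at 24 h lay between -0.21 and 0.29 without 1 library.

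The replicate block gave 2 calls in place of 1 for KO#2 against KO#1 at 0 h, called Lemd3 also in KO#1 against wt at 24 h (adjusted p = 0.0449), and gave 447 calls over all genes in place of 244 for the difference of the KO#2 and wt responses. Same-numbered libraries of different groups had a mean r of 0.0531 over 45 pairs, 16 of them over 0.1, so the numbers were not taken as pairs. The shallowest library, wt 0 h replicate 1, held 84 counts of Emd and 88 of Lemd3, which limits the precision there.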
